A study of Mus musculus with 6 samples.

Results

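The potassium channel genes described here were the 69 protein-coding rows of the deposited table with a symbol starting with Kcn and a mean normalized count of at least 10 over the 6 samples. They were 69 of 17889 rows, and 14969 rows reached that mean. Genes of the Kcnc and Kcnab families and Kcns3 were left out by name. Of the other protein-coding Kcn genes of GENCODE M21, 11 had a mean under 10, and 6 had no row and were not analysed here. The lowest members were Kcnk5 (mean 22.9) and Kcnj13 (24.0), and the highest genes under the limit were Kcnh8 (7.74) and Kcnrg (4.91). RNA came from the prefrontal cortex of juvenile mice (postnatal day 28, strain C57BL/6J) in 2 groups: 3 wild-type samples (WT), and 3 samples titled Hetero whose genotype is given as Cyfip2 mutant. The labels do not describe the mutated allele, do not name a treatment, and do not say whether each sample was a separate animal. The p-values therefore rest on the variation among 6 samples, some of which may be technical.

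Potassium channels let potassium leave the cell and so set the resting potential of neurons and glia and end the action potential. Kv channels open on depolarization, calcium- and sodium-activated channels couple potassium efflux to firing, inward rectifiers and tandem-pore channels carry resting current, and auxiliary subunits tune gating and surface expression. Cyfip2 encodes a subunit of the actin-regulating WAVE complex. The CYFIP proteins also associate with FMRP, an RNA-binding protein known to bind the sodium-activated channel Slack and a beta subunit of the BK channel.

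Cyfip2 read 31933, 30496 and 27503 in WT and 20959, 21237 and 18285 in Hetero. The 3 Hetero values lay below the 3 WT values, at a ratio of 0.672 (95% interval 0.600 to 0.754), a limma adjusted p of 0.31 over all genes and an exact two-sided permutation p of 0.1, the smallest that 3 against 3 samples allow. From the spacing of low values the libraries held an estimated 25459486 to 43815423 reads, with Hetero sample 3 the deepest. Hetero sample 3 stood farthest from the rest, with a median absolute log2 difference of 0.12 to 0.15 from each of the other 5 libraries, against 0.09 to 0.14 among those 5. Markers of excitatory neurons summed to 187627 to 195161 in WT and 175349 to 182080.3 in Hetero, and choroid plexus markers to 35.1 to 55.5 in WT and 64.2 to 87.6 in Hetero. A list of 4 genes used as markers of other brain regions summed to 1662 to 1809.8 in WT and 1879 to 2345 in Hetero. Of these, Rorb, also known from layer 4 of the cortex, differed by 0.42 on the log2 scale. The other 3 genes had fitted values below 0. In whole tissue, fewer cells of a type and less RNA per cell cannot be told apart.

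Per kilobase of annotated exon, the levels of the 69 genes spanned from 6.67 for Kcnmb1 to 2042 for Kcnj4, in normalized counts per kilobase averaged over the 6 samples. Kcnj4, the strong inward rectifier Kir2.3, had the highest level, and its range over the samples (1933 to 2222) lay above those of the other 68 genes. Next came the G-protein-gated subunit Kcnj9 (1602), the astrocytic inward rectifier Kcnj10 (1441), the tandem-pore channel Kcnk1 (1411) and the forebrain ELK channel Kcnh3 (1358), whose ranges overlapped from 1 gene to the next. High levels per kilobase within their families belonged to Kcnip3 (1133), Kcna1 (1122), the silent subunit gene Kcnf1 (1090.5), Kcnt1 (668), Kcnmb4 (645), Kcnd2 (460.4), Kcnn2 (156) and Kcne1l (41.0). Kcnn1 (156) lay within the range of Kcnn2 (143 to 169.7). The lowest were Kcnmb1, Kcnk5 (6.72) and Kcnq1 (6.89), genes best known from smooth muscle, kidney and heart. Exon length was the union of all annotated exons, so genes with long or incompletely annotated untranslated ends are placed less surely.

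**Figure D1:**
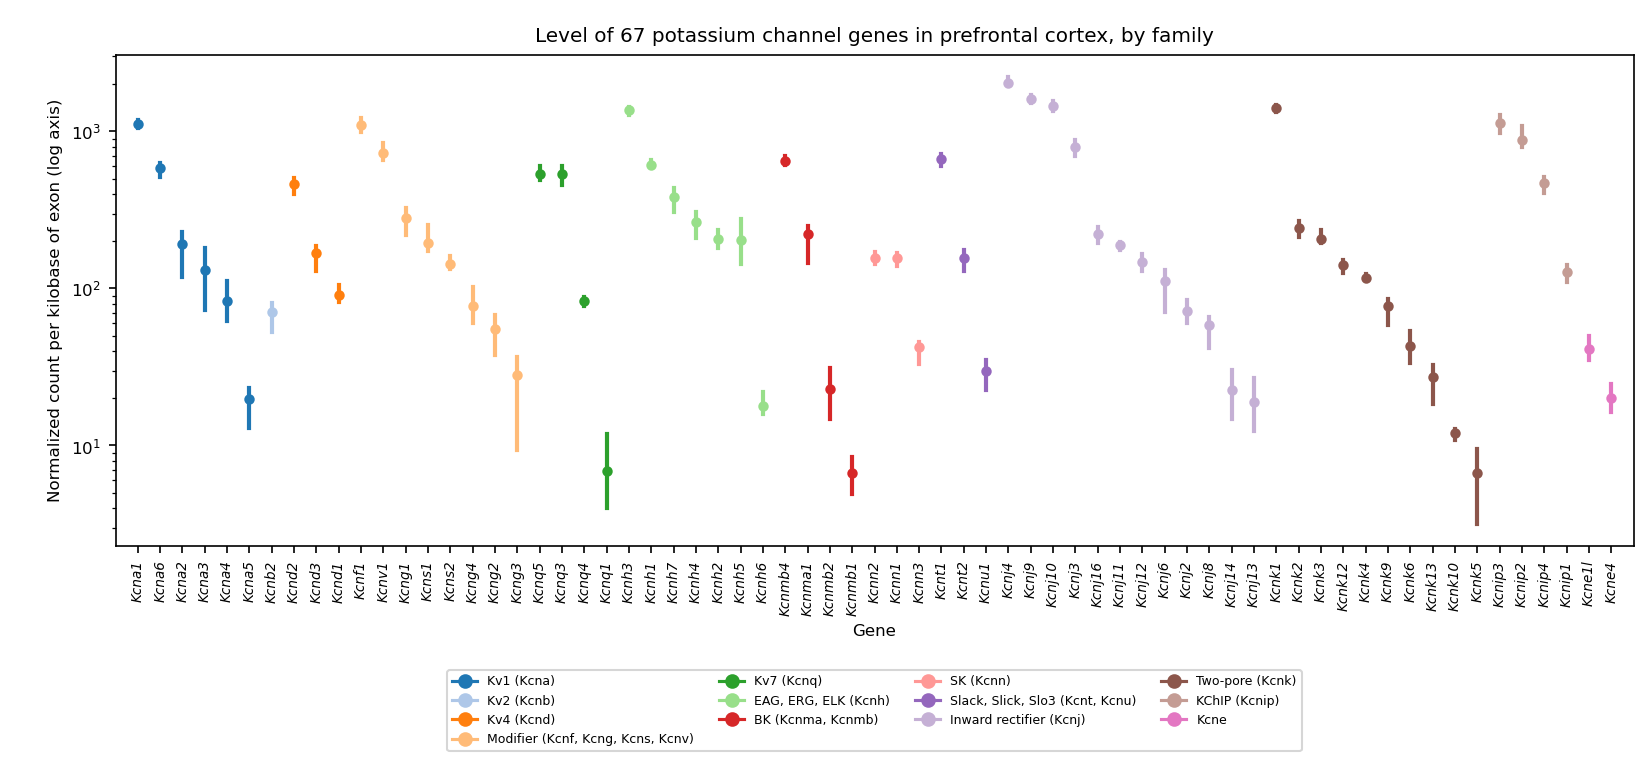
Level of 67 of the 69 genes, as normalized count per kilobase of annotated exon on a log axis, grouped by family; the point is the mean of the 6 samples and the bar spans the lowest to the highest sample. Kcnj4 is highest at 2042 and Kcnmb1 lowest at 6.67.

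Between the genotypes, none of the 69 genes passed a limma adjusted p under 0.05 (0 of 69), as for all tested genes (0%, 0 of 14969). At an unadjusted p under 0.05 there were 3 higher genes, Kcnj10, Kcnk2 and Kcnip2, and 2 lower ones, Kcng1 and Kcnip3. That is 7.25% of the members against 3.83% of all tested genes (1.66% higher and 2.17% lower). The 3 Hetero values lay entirely above the 3 WT values for 8 members (11.6%, against 4.4% of all tested genes) and entirely below for 1 (1.45%, against 4.32%), together 13.0% against 8.72%. The 8 were Kcnj10, Kcnj9, Kcnj4, Kcnj11, Kcnk2, Kcnh1, Kcns1 and Kcnip2, and the 1 was Kcnip3. Their ratios of Hetero to WT lay between 0.885 for Kcnip3 and 1.17 for Kcns1. Leaving out 1 sample at a time gave 2 to 7 members at an unadjusted p under 0.05, with 2 each without WT sample 2 and without Hetero sample 2, and 2.82% to 5.22% of all tested genes. With 1 sample fewer, groups fail to overlap more often: 13 to 20 members (18.8% to 29.0%) against 16.3% to 20.9% of all tested genes, with 14 members each without WT sample 1, 2 or 3 and 20 without Hetero sample 3. Without Hetero sample 3, which leaves 2 against 3 samples, 19 members lay entirely above WT and 1 below (27.5% and 1.45%, against 10.4% and 10.5% of all tested genes).

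Fitted log2 changes (Hetero minus WT, of the normalized count plus 1) were above 0 for 38 members and below 0 for 31, with a median of 0.02 against -0.002 over all tested genes. They ran from -0.40 for Kcng3 to 0.46 for Kcnq1. The median standard error was 0.11, against 0.10 over all tested genes. For 52 members (75.4%) the 95% interval lay within 1.5-fold in both directions, and for 33 (47.8%) within 1.25-fold, against 80.9% and 55.5% of all tested genes.

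**Figure D2:**
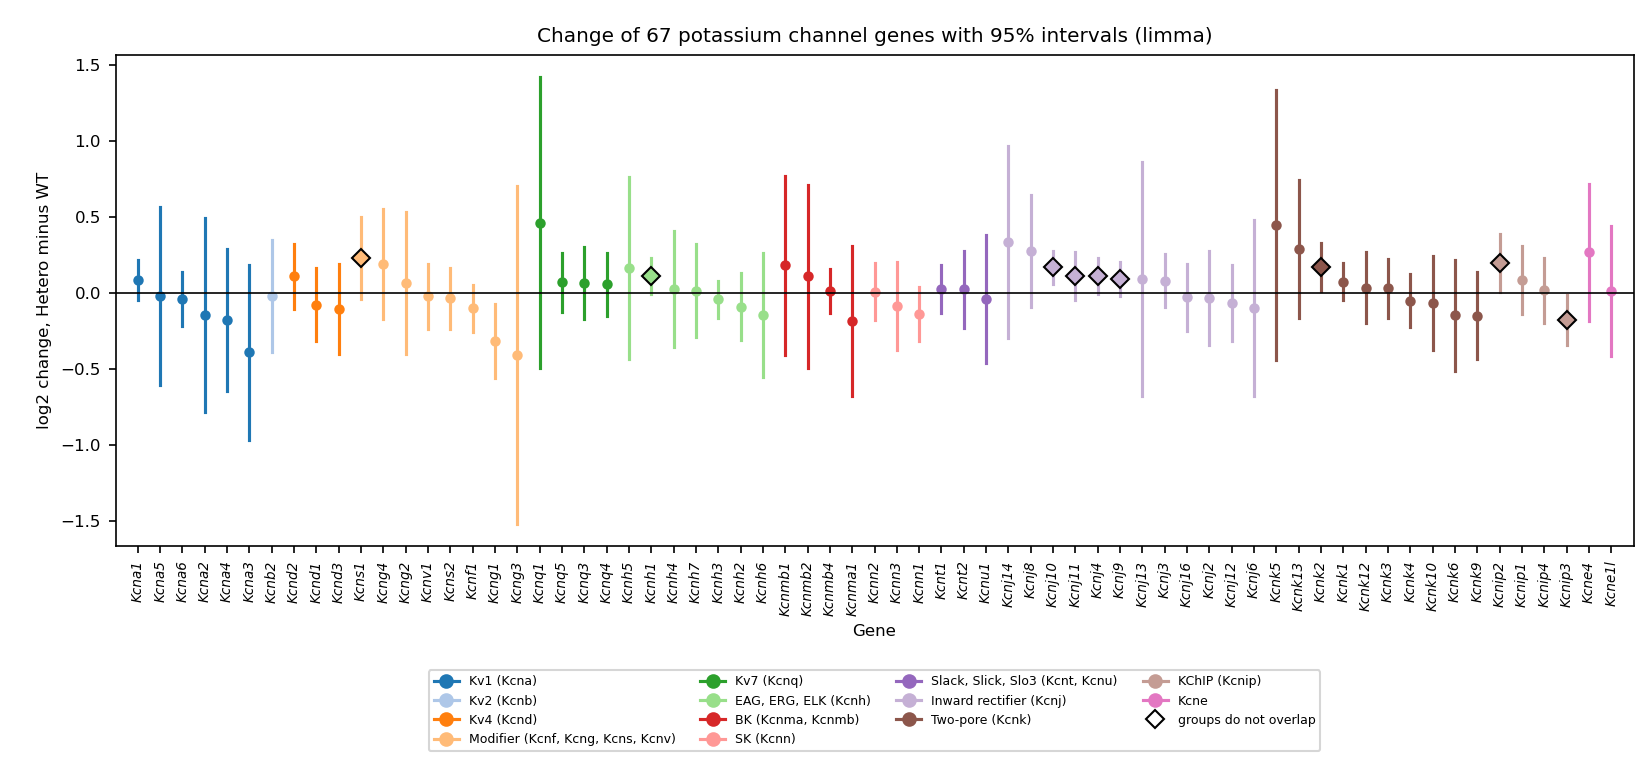
Log2 change between Hetero and WT (y axis) for 67 of the 69 genes (x axis) grouped by family, with 95% limma intervals as bars; outlined diamonds are the 9 genes whose groups do not overlap. The 4 inward rectifier diamonds lie between 0.10 and 0.17, and the widest interval belongs to Kcng3.

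The inward rectifiers were 12 of the 69 members and held 4 of the 8 members that lay entirely above WT. Over all tested genes, 4.4% lay entirely above WT. Of the 12 Kcnj genes, 8 had a fitted value above 0 and 4 below, with a median of 0.09, and 1 had an unadjusted p under 0.05. Kcnj10 (ENSMUSG00000044708, chromosome 1, 172341210 to 172374085 in GRCm38, plus strand) encodes Kir4.1, the main potassium-buffering channel of astrocytes. It read 7439.8, 7245 and 7319.8 in WT and 8106, 8156 and 8488 in Hetero. The Hetero values exceeded every WT value, at a ratio of 1.12 (95% interval 1.04 to 1.21), a log2 change of 0.17 ± 0.05 (SE), an unadjusted p of 0.0054 and a limma adjusted p of 0.9996. This was the smallest unadjusted p among the members. In the 6 fits that each left out 1 sample, the change stayed between 0.15 and 0.18. Of 6 astrocyte marker genes, 2 had a fitted value above 0 and 4 below, and 2 of the lower ones had an unadjusted p under 0.05. The 6 summed to 151809 to 170074 in WT and 143786 to 156491 in Hetero. The 3 oligodendrocyte precursor markers all had a fitted value below 0 and an unadjusted p under 0.05. They summed to 5797 to 6715 in WT and 4915 to 5432 in Hetero. Of all tested genes, 2.17% were lower at that threshold. No marker of either list was at 0, and their part in the Kcnj10 difference was not tested. Kcnj16, the Kir5.1 subunit that pairs with Kir4.1, differed by -0.03 ± 0.10 (SE), with overlapping groups.

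Kcnj9 lies next to Kcnj10 on chromosome 1 (172320501 to 172329318, minus strand). Both genes are transcribed away from each other, with start sites 11892 bases apart. Kcnj9 encodes GIRK3, a neuronal subunit of channels opened by G-protein-coupled receptors. It read 6472, 6817 and 6643 in WT and 6929, 7026 and 7339 in Hetero, again without overlap. The ratio was 1.07 (95% interval 0.988 to 1.15) and the unadjusted p was 0.088. An exon of Gm36937 on the opposite strand overlaps Kcnj9. Because the neighbours both separated the groups, the 250 bases before each start are printed from RefSeq (GRCm38.p6, 5′ to 3′ on the gene's strand), at chr1:172329323-172329572 and chr1:172340960-172341209. Capitals mark matches on either strand to the TATA box sequence TATAAA or the GC box sequence GGGCGG. Matches count at any distance from the start, so a marked TATAAA need not be a working TATA box.
Kcnj9: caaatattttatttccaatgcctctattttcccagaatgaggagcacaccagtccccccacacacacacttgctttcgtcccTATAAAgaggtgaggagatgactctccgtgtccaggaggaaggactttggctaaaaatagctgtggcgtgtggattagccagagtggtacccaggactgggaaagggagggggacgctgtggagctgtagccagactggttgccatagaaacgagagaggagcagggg
Kcnj10: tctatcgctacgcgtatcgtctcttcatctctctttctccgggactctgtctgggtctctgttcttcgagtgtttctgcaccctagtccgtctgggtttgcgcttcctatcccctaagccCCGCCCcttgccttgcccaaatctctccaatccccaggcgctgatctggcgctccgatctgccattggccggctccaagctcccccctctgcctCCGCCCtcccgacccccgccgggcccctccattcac
The 2 windows differed in makeup. The Kcnj9 window held 1 TATAAA, no GC box and 5 CpG dinucleotides at 52.0% G and C. The Kcnj10 window held 2 GC boxes, no TATAAA and 17 CpG dinucleotides at 62.0%.

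The other G-protein-gated subunits did not separate the groups. Kcnj3 (GIRK1) differed by 0.08 ± 0.08 (SE). Kcnj6 (GIRK2) differed by -0.10 ± 0.24, with Hetero sample 3 at 543 against 732 to 1004 in the other 5 samples and a difference of 0.18 without it. Kcnj4 (chromosome 15, 79483714 to 79505241) read 4159.6, 4219 and 4287 in WT and 4406, 4511 and 4782 in Hetero, a ratio of 1.08 (95% interval 0.995 to 1.17) and an unadjusted p of 0.063. Every Hetero value was above every WT value, and Hetero sample 3 was the highest. Its relatives Kcnj2 (Kir2.1) and Kcnj12 (Kir2.2) differed by -0.03 and -0.06, with overlapping groups, and Kcnj14 (Kir2.4) by 0.34 ± 0.28 (SE).

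Kcnj11 (chromosome 7, 46093953 to 46100764) encodes Kir6.2, the pore of the ATP-sensitive channel that links membrane potential to metabolism. It read 645, 681 and 663 in WT and 703, 718 and 731 in Hetero, so the groups did not overlap. The ratio was 1.08 (95% interval 0.970 to 1.21) and the unadjusted p was 0.14. Abcc8, which encodes the sulfonylurea receptor SUR1 that completes this channel in neurons, lies 3758 bases from it on chromosome 7 and was in the list of channel partners. Abcc8 read 1306, 1446 and 1223 in WT and 1522, 1638 and 1492 in Hetero, also without overlap, at a log2 change of 0.23 ± 0.08 (SE), an unadjusted p of 0.015 and a limma adjusted p of 0.9996. The vascular counterparts Kcnj8 (Kir6.1) and Abcc9 (SUR2) differed by 0.28 ± 0.16 and 0.01 ± 0.09 (SE). Endothelial and mural markers summed to 9235 to 10515 in WT and 9463 to 11273 in Hetero. Kcnj13, a channel of choroid plexus and retinal pigment epithelium, differed by 0.09 ± 0.34 (SE) at a mean of 24.0.

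**Figure D3:**
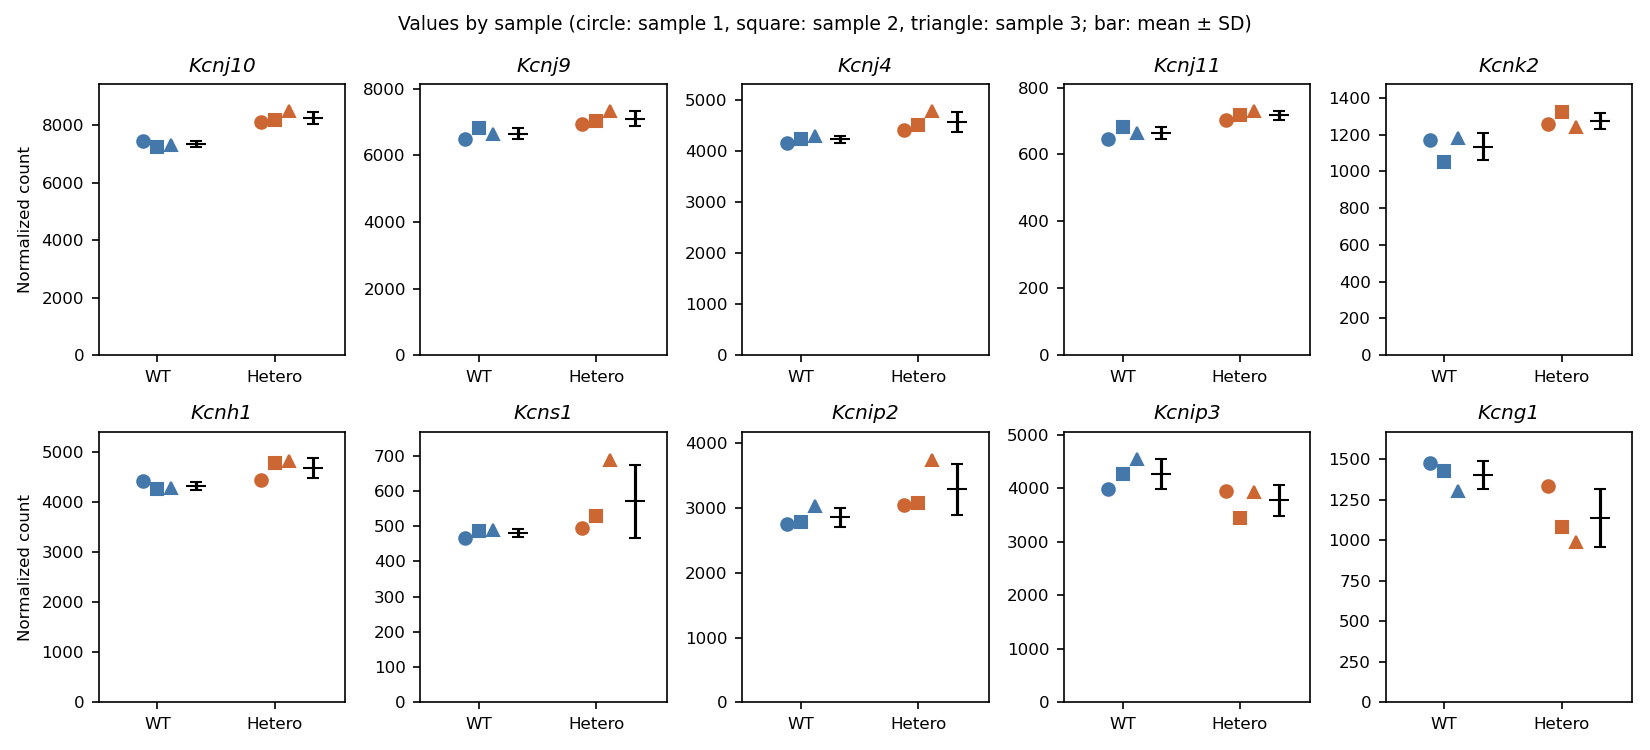
Normalized counts of the 9 genes whose groups do not overlap, and of Kcng1, in 3 WT (blue) and 3 Hetero (orange) samples; the bar beside each group is the mean ± SD, and y axes start at 0. Kcnj10 spans 8106 to 8488 in the Hetero samples, above the WT span of 7245 to 7439.8; Kcnip2 and Kcns1 are highest in Hetero sample 3.

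Of the 10 tandem-pore (K2P) genes, which carry background potassium current, 6 had a fitted value above 0 and 4 below, with a median of 0.03. Kcnk2 (chromosome 1, 189207930 to 189402273) encodes TREK-1, a leak channel gated by stretch and lipids. It read 1173, 1051 and 1179 in WT and 1257, 1325 and 1242 in Hetero. All Hetero values were above the WT values, at a ratio of 1.12 (95% interval 1.01 to 1.25) and an unadjusted p of 0.038. The related channels Kcnk4 (TRAAK) and Kcnk10 (TREK-2) differed by -0.05 and -0.07. An exon of A430027H14Rik on the opposite strand overlaps Kcnk2. Kcnk1 (TWIK-1), the K2P gene with the highest level, differed by 0.08 ± 0.05 (SE), with overlapping groups. The acid-sensitive channels Kcnk3 (TASK-1) and Kcnk9 (TASK-3) differed by 0.03 and -0.15, and by -0.05 and 0.008 without Hetero sample 3. Kcnk13 (THIK-1), a leak channel of microglia, differed by 0.29 ± 0.20 (SE), while 5 of 5 microglial markers had a fitted value below 0 and summed to 6781 to 7429 in WT and 6389 to 6937 in Hetero.

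The Kv1 family, which sets firing threshold at axons, had 5 of 6 members with a fitted value below 0 and a median of -0.09, but 0 had an unadjusted p under 0.05. This count changed without Hetero sample 3, when 3 of 6 lay above 0, and the median was 0.05. Kcna3 had the smallest p of the family. It read 344, 251 and 244 in WT and 265, 254 and 139 in Hetero, a log2 change of -0.39 ± 0.25 (SE), and -0.09 without Hetero sample 3. Kcna2 read 2559, 2362 and 2140.3 in WT and 2505, 2741 and 1403 in Hetero, so that Hetero sample 3 alone lay below the rest. The Kcna2 log2 change was -0.14, and 0.16 without that sample. Kcna1, which stood 1122 per kilobase, differed by 0.09 ± 0.06 (SE).

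The slower delayed rectifier Kcnb2 differed by -0.02, and by 0.18 without Hetero sample 3. The A-type Kv4 genes Kcnd1, Kcnd2 and Kcnd3 differed by -0.08, 0.11 and -0.10, each with overlapping groups, and by -0.07, 0.19 and 0.05 without Hetero sample 3. Among the Kv7 genes, which carry the M-current, Kcnq3 read 8269, 7281 and 7382 in WT and 8539, 8899 and 6712 in Hetero, a log2 change of 0.07 ± 0.10 (SE). Without Hetero sample 3 it was 0.19, with an unadjusted p of 0.013. Kcnq5 differed by 0.07. Kcnq1, the cardiac member, had the largest positive fitted change of all members (0.46 ± 0.43, SE) but read only 36.5, 16.3 and 17.2 in WT and 17.2, 33.7 and 48.2 in Hetero, with overlapping groups. Leaving out 1 sample moved its change between 0.14 (without Hetero sample 3) and 0.86 (without Hetero sample 1).

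Of the 7 Kcnh genes 4 had a fitted value above 0 and 3 below. Kcnh1 (EAG1, chromosome 1, 192190774 to 192510159) read 4414, 4266 and 4281 in WT and 4438, 4772 and 4807 in Hetero. The lowest Hetero value exceeded the highest WT value by a narrow margin, at a ratio of 1.08 (95% interval 0.994 to 1.18) and an unadjusted p of 0.066. Kcnh3 differed by -0.04 ± 0.05 (SE), and the ERG genes Kcnh2, Kcnh6 and Kcnh7 by -0.09, -0.14 and 0.02.

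The modifier subunits do not form channels alone but join Kv2 subunits. Of 8 such genes 3 had a fitted value above 0 and 5 below. Kcng1 (Kv6.1, chromosome 2, 168260117 to 168281736) read 1473, 1428 and 1303 in WT and 1334, 1082 and 986 in Hetero. The 3 lowest of its 6 values included 2 Hetero samples, and Hetero sample 1 lay within the WT range. Its ratio was 0.804 (95% interval 0.680 to 0.951), with a log2 change of -0.31 ± 0.11 (SE) and an unadjusted p of 0.016. Kcns1 (Kv9.1, chromosome 2, 164163619 to 164171113) read 468, 487 and 488 in WT and 494, 529 and 687 in Hetero. The groups did not overlap, but the difference from WT was 0.09 on the log2 scale without Hetero sample 3, against 0.23 with it. Kcng3 was at 31.5 in Hetero sample 3, against 91.9 to 123 elsewhere, and its change went from -0.40 to 0.21 without that sample. Kcnf1 differed by -0.10 ± 0.07 (SE), and Kcnv1, the next in level, by -0.02.

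For all 10 calcium- and sodium-activated channel, beta subunit and related genes the group ranges overlapped. Kcnma1, the pore of the BK channel that shortens action potentials, read 4204, 3820.1 and 3784 in WT and 4024, 4214 and 2450.4 in Hetero. Hetero sample 3 alone was low, and the log2 change of -0.18 ± 0.20 (SE) became 0.07 without it. Kcnmb4, the neuronal BK beta subunit, read 2151, 2119 and 2125 in WT and 2312, 2021 and 2135 in Hetero, a ratio of 1.01 (95% interval 0.914 to 1.12). Kcnt1, which encodes Slack, read 6112, 6367 and 6345 in WT and 6742, 6795 and 5711 in Hetero, a ratio of 1.02 (95% interval 0.913 to 1.14). Without Hetero sample 3 the Kcnt1 difference was 0.11 on the log2 scale, and the 2 other Hetero values lay above WT. For both genes the interval from all 6 samples excluded changes of 1.25-fold in either direction. Fmr1, the gene of FMRP, differed by -0.04 ± 0.08 (SE). The SK genes Kcnn1, Kcnn2 and Kcnn3, which produce the afterhyperpolarization, differed by -0.14 ± 0.08, 0.01 ± 0.08 and -0.08 ± 0.13 (SE), with overlapping groups, and the Kcnn3 value was 0.07 without Hetero sample 3. Kcnt2 (Slick) differed by 0.02, and Kcnu1, a channel known from sperm, by -0.04.

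The KChIP genes encode calcium-binding auxiliary subunits of Kv4 channels, and 2 of the 4 separated the genotypes in opposite directions, each by a narrow margin. Groups did not overlap for 8.72% of all tested genes. Kcnip2 (chromosome 19, 45791839 to 45816061) read 2757, 2784 and 3025 in WT and 3041, 3083 and 3744 in Hetero. All Hetero values were above WT, the nearest at 3041 against 3025. The ratio was 1.15 (95% interval 1.01 to 1.31) with an unadjusted p of 0.042, and Hetero sample 3 was the highest. Without that sample the log2 change was 0.10, against 0.20 with it. Kcnip3 (chromosome 2, 127456498 to 127522094), whose product is also the calcium sensor and transcriptional repressor DREAM, read 3983, 4269.6 and 4538 in WT and 3948, 3442 and 3932 in Hetero. All Hetero values were below WT, the nearest at 3948 against 3983. The ratio was 0.885 (95% interval 0.790 to 0.991) with an unadjusted p of 0.037. The limma adjusted p of both was 0.9996. Kcnip1 and Kcnip4 differed by 0.09 ± 0.10 and 0.02 ± 0.09 (SE). In the Kcne family of small accessory subunits, Kcne4 differed by 0.27 ± 0.20 and Kcne1l by 0.01 ± 0.19 (SE), at means under 100.

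The windows before Kcnip2 (chr19:45816064-45816313) and Kcnip3 (chr2:127522095-127522344) are printed because these relatives lay on opposite sides of WT, in the same form and with the same motifs in capitals.
Kcnip2: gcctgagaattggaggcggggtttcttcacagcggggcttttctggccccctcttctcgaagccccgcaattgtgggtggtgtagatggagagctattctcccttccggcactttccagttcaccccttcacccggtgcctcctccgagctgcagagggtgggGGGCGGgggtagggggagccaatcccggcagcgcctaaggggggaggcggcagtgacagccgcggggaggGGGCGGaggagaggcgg
Kcnip3: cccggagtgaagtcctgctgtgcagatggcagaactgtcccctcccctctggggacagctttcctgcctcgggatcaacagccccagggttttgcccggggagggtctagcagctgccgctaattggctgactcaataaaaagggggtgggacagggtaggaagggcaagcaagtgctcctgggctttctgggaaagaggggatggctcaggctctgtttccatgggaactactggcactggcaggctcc
Kcnip2 had 2 GC boxes and 15 CpG dinucleotides here, and Kcnip3 had neither motif and 4 CpG dinucleotides. Of the 69 genes, 48 had a promoter entry. Taking for each the start nearest to its GENCODE start, 22 (45.8%) held a GC box and 2 (4.17%) a TATAAA in these 250 bases, against 32.7% and 12.4% of all 32851 windows of that length in the table. The cyclic AMP response element TGACGTCA was in 0 of the 48 and in 1.55% of all windows. The median CpG count was 10 against 6. The windows of the whole table were not limited to a single start per gene or to genes expressed here. The sets compared are therefore not matched.

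Genes outside the rule were counted from a list of 33: the 8 channel and beta subunit genes left out by name, and 25 partners whose products bind, tether or regulate potassium channels. Of the 33, 0 passed the adjusted threshold, and 4 were higher (12.1%, against 1.66% of all tested genes) and 0 lower (against 2.17%) at an unadjusted p under 0.05. The 4 held 3 of the 8 genes left out by name and 1 of the 25 partners. The 3 Hetero values lay entirely above WT for 4 of the 33, against 4.4% of all tested genes. They lay entirely below WT for 2, against 4.32%, and both were among the 8 genes left out by name. The median log2 change of the 33 was 0.01. The 4 higher genes included Kcnc1 (0.18 ± 0.05, SE), a Kv3 channel of fast-spiking neurons, Kcnab3 (0.43 ± 0.11), a Kv beta subunit, and Abcc8. The Kv4 partners Dpp6 and Dpp10 differed by -0.01 and 0.04, and the Kv1 scaffold genes Cntnap2, Lgi1 and Dlg4 by 0.03, -0.05 and -0.07. Ank3, which tethers Kv7 channels at the axon initial segment, differed by 0.02. Of 6 interneuron markers 5 had a fitted value above 0, 1 of them (Pvalb, 0.28) at an unadjusted p under 0.05, and they summed to 19677 to 21422 in WT and 21039.7 to 22231 in Hetero. Their part in the Kcnc1 value was not tested.

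Hetero sample 3 was often the extreme library. It was the lowest of the 6 samples for 29 members (42.0%), against 23.2% of all tested genes, and the highest for 13 (18.8%, against 22.1%). Hetero sample 2 was the highest for 21 (30.4%, against 15.5%). Relative to the mean of the other 5 samples, the log2 value of Hetero sample 3 was lowest for Kcng3 (-1.72), Kcna3 (-0.95), Kcna2 (-0.81), Kcnj6 (-0.73), Kcnma1 (-0.71) and Kcna5 (-0.68). It was highest for Kcnq1 (1.05), Kcng4 (0.48), Kcns1 (0.48) and Kcnj14 (0.45). The choice of these genes followed from their values.

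The deviation of Hetero sample 3 went with exon length. Among the 23 members with the longest exons (5407 bases or more) its median deviation was -0.26 and it was the lowest sample for 15 (65.2%, against 39.4% of all tested genes of that length class). Among the 23 shortest (up to 3677 bases) the median was -0.006 and it was lowest for 6 (26.1%, against 10.2%). Over all tested genes of the same length classes the medians were -0.08 and 0.08. Across the 69 genes, which share their libraries, Spearman's rho between exon length and the deviation was -0.36, and over 14958 tested genes with a length it was -0.38. This library was also the deepest, and the part of depth was not tested. Without Hetero sample 3, 52 of the 69 genes had a fitted value above 0, with a median of 0.07 against 0.0003 over all tested genes, and 6 were higher and 1 lower at an unadjusted p under 0.05 (10.1% together, against 5.22% of all tested genes in that fit). The 6 were Kcnj10, Kcnk2, Kcnq3, Kcnt1, Kcnh5 and Kcnh7, and the 1 was Kcnip3, so Kcng1 and Kcnip2 were not among them.

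**Figure D4:**
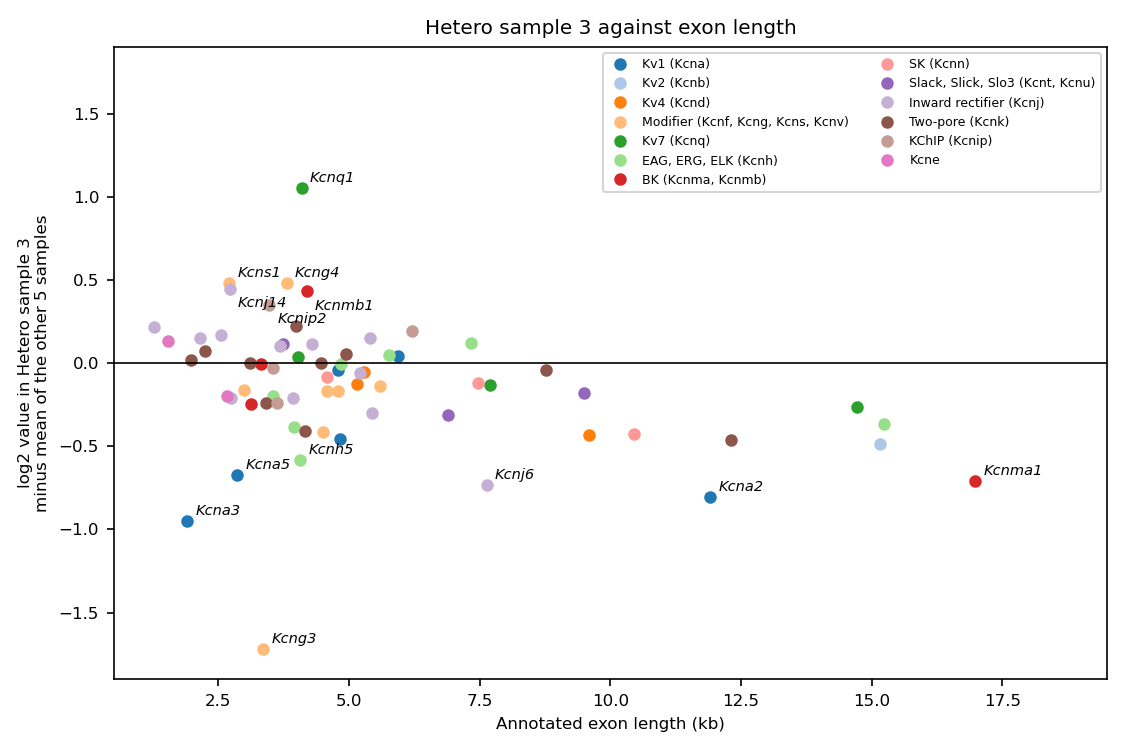
Log2 value in Hetero sample 3 minus the mean of the other 5 samples (y axis) against annotated exon length in kilobases (x axis) for 67 of the 69 genes, coloured by family. Kcna2 (-0.81) and Kcnma1 (-0.71) lie low among the long genes, and Kcng3 (-1.72) and Kcnq1 (1.05) are the extremes.

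Position was shared by several members. Besides Kcnj9 and Kcnj10, 6 other neighbouring pairs lay within 500 kilobases of each other. Kcna1 sits between Kcna5 and Kcna6 on chromosome 6, Kcna2 lies next to Kcna3 on chromosome 3, Kcnj2 next to Kcnj16 on chromosome 11, and Kcnj11 beyond Kcnj14 on chromosome 7. Kcnmb1 lies inside Kcnip1 on the opposite strand. Apart from Kcnj9 with Kcnj10, no pair had both members separate the genotypes: Kcna2 and Kcna3 differed by -0.14 and -0.39, Kcnj2 and Kcnj16 by -0.03 and -0.03, Kcna5, Kcna1 and Kcna6 by -0.02, 0.09 and -0.04, Kcnj14 and Kcnj11 by 0.34 and 0.11, and Kcnip1 and Kcnmb1 by 0.09 and 0.18. Exons of 22 members overlap an exon of another annotated gene, 1 of them on the same strand (Kcnk4 with Catsperz). Whether the counting used the strand is not given in the sources used here, so reads of such partners cannot be told apart.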

How the data were processed

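Libraries were made with a stranded mRNA kit, per the labels' protocols. The authors deposited normalized counts per gene, used as a signal. DESeq2 1.19.11, Salmon 0.11.2, R 3.6.0 and the build GRCm38 are listed, without their roles, per the submitters' processing notes. The scaling formula and the annotation used are not stated there. In each library 14.4% to 27.8% of values under 60 were whole multiples (within 0.02) of 1 step, so whole reads were not recovered and no count test was run. The column total divided by that step gave the estimated reads, an approximate depth.

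Identifiers were matched to GENCODE M21 (17875 of 17889), whose coordinates are printed, 1-based. Genes with a mean of at least 10 were fitted as log2(value + 1) with limma 3.58.1 in R 4.3.3 (trend, robust), two-sided, with Benjamini-Hochberg adjustment over 14969 genes at 0.05. TMM factors were computed from their published formula. On data simulated for this comparison over 14869 genes, with 50 changed at each fold, limma recovered 16% at 1.25-fold, 48% at 1.5-fold, 80% at 2-fold and 92% at 3-fold. The changed genes of all folds were planted together, and the noise was independent between samples and between genes. The real fit called 0 genes, and Cyfip2 at a ratio of 0.672 had a limma adjusted p of 0.31. The simulated rates may therefore be too high for the real data.

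The members and lists were chosen with earlier results of these data known. Named genes are Cyfip2, members with an unadjusted p under 0.05 or groups that do not overlap, in each family the highest level and the smallest p, and other members where a sentence needs them. Some genes that this rule reaches are not reported here by name or plotted, but count in the totals. Alternatives were other scalings, filters, pseudocounts, moderation, a replicate block and leaving out each sample.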

Additional observations from a re-analysis of the deposited data

How the results depend on the processing

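Under TMM rescaling, median centring, other filters, other pseudocounts, eBayes without trend and robust fitting, a replicate block, an adjusted threshold of 0.1 and the fits leaving out 1 sample each, 0 of the members passed. Over all genes 2 passed with the replicate block (Cyfip2 and Jun) and 0 to 1 when a sample was left out (Rpl15-ps3 without WT sample 1, Gm10240 without Hetero sample 2). Cyfip2 had an adjusted p of 0.0016 at a log2 change of -0.57 in the replicate block fit, and its change was -0.63 to -0.50 when a sample was left out. Same-numbered samples correlated at -0.01, 0.004 and 0.23 in their deviations from the group means. With 3 samples per group these values cannot decide whether the numbers pair the samples. Only the samples numbered 3 correlated best with their own number. At an unadjusted p under 0.05, 2 members (Kcng1 and Kcnj10) remained without trend and robust fitting (2.90%, against 4.18% of all tested genes). With the replicate block 7 were below it (10.1%, against 5.26%). When a sample was left out 2 to 7 were (2.90% to 10.1%, against 2.82% to 5.22%). There were 2 each without WT sample 2 (Kcna4, Kcnj10) and without Hetero sample 2 (Kcnip2, Kcnj10). Members whose groups did not overlap numbered 13 to 20 when a sample was left out, an alternative chosen after seeing the data. That is 18.8% to 29.0%, against 16.3% to 20.9% of all tested genes. Over all 69 members, 34 had the same sign in each of the 6 fits that left out a sample and 35 did not. Of the 24 members named for their p, their lack of overlap or their place in a family, 19 kept their direction in every alternative run. Members whose groups do not overlap cannot change sign when a sample is left out. The 24 were also picked from these same values, so this count is no measure of their stability. When a sample was left out, the log2 change of the other 5 of these 24 had these lowest and highest values: -0.092 to 0.15 for Kcne1l, -0.32 to 0.067 for Kcnma1, -0.037 to 0.060 for Kcnmb4, -0.050 to 0.066 for Kcnn2 and -0.016 to 0.11 for Kcnt1. The cause was not tested. The SE was 0.47 for Kcng3 and 0.43 for Kcnq1, against 0.05 for Kcnj10.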

Other observations

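The coefficient of variation over the 6 samples was largest for 3 members, at 47.1% for Kcnq1, 37.9% for Kcnk5 and 34.6% for Kcng3, against a median of 10.9% over the 69 genes and 8.31% over all tested genes. Kcnq1 and Kcnk5 were among the lowest members, with mean normalized counts of 28.2 and 22.9. Kcng3 read 31.5 in Hetero sample 3, against 91.9 to 123 in the other samples. The smallest coefficient of variation was 3.54% for Kcnk4, the mechanosensitive channel TRAAK.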
